A study of Orbilia oligospora with 12 samples.

Results

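In the nematode-trapping soil fungus Arthrobotrys oligospora, which catches its prey in adhesive hyphal networks, 5 genes were followed that stood high in the wild type before trap induction and low 48 h later. They encode an FAD-linked oxidase (AOL_s00188g307), a mitochondrial 2-oxoglutarate/malate carrier (AOL_s00215g29), a peptidase inhibitor (AOL_s00054g904), a formamidase (AOL_s00043g399) and an alpha-glucosidase (AOL_s00169g233). They are 5 of the 11479 genes in the expression table, and they were picked by name from an earlier look at these libraries for their high wild-type values at 0 h and low wild-type values at 48 h. All levels in the wild type, and every comparison that involves a wild-type library, are therefore descriptions of how the genes were chosen and carry no test. The levels in the strain labelled ΔAorlmA are not part of the stated rule, and the change over time in it was tested for all but the alpha-glucosidase. The spread used in that test is shared over all 12 libraries, so it also takes in the wild-type libraries that chose the genes. The filter on low values asked for at least 1 TPM (the length-corrected share of transcripts in a library) in at least 3 libraries, which 9355 genes reached. Outside the uninduced wild type, the oxidase, the inhibitor and the formamidase were at that level in all 9 libraries and the carrier in 7, so these 4 genes would have passed without the libraries that chose them. The alpha-glucosidase was at that level in 1 of the 9 and passed only through the uninduced wild type. Of these 9355, 21.0% had all 3 uninduced wild-type libraries above the other 9, as did each of the 5 genes, whose wild-type values are what chose them.

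RNA was sequenced from hyphae of 4 groups of 3 libraries: the strain labelled ΔAorlmA at 48 h and at 0 h, and the wild type at 48 h and at 0 h. AorlmA is named in the study's title as a MADS-box transcription factor. Both strains grew for 5 days at 28 °C on potato dextrose agar, and the treatment label of all 12 libraries, those at 0 h included, is a nematode extract that induces traps. The submitters call the libraries biological replicates and say nothing of separate cultures, so the p-values reflect just the scatter among these samples, which may be technical. How many transformants the mutant strain stands for was not looked up elsewhere and is not stated in its labels.

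A. oligospora lives on dead plant matter and sugars, and it turns to trapping when nitrogen is short and nematodes are near. Fungi release ammonia from amides with amidases and formamidases, and they split maltose and starch fragments with alpha-glucosidases. Carriers of the inner mitochondrial membrane move organic acids between the cytosol and the citric acid cycle, while small secreted or cytosolic inhibitors hold peptidases in check.

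The labels and the libraries carried several limits that touch every value below. The gene annotated nearest to AorlmA, the SMP1-type MADS-box gene AOL_s00078g125, was not lost in the labelled mutant. It averaged 97.6 ± 10.7 and 117 ± 45.8 TPM in labelled ΔAorlmA at 48 h and 0 h, against 35.1 ± 8.92 and 36.2 ± 5.24 TPM in the wild type (SD, n = 3 each). The growth protocol names a deletion of Aosnf1 instead, and the gene annotated as SNF1, AOL_s00173g192, was also expressed in the labelled mutant, at 35.5 ± 10.3 and 43.1 ± 9.42 TPM in its 48 h and 0 h libraries, against 39.8 ± 13.4 and 106 ± 3.17 TPM in the wild type. The strain is therefore called labelled ΔAorlmA throughout. Each library held 48.5 to 61.1 M clean reads. The first labelled ΔAorlmA library at 0 h correlated at 0.903 on average with the others of its group. It correlated at 0.924 with the third labelled ΔAorlmA library at 48 h. The changes over time of the 5 genes and the counts of the 5 related lists that involve the first library at 0 h are given with and without it. The ratios of means between the strains at 0 h are given with it only. The first labelled ΔAorlmA library at 48 h correlated at 0.932 on average with the others of its group, and at 0.944 with the second wild-type library at 48 h. Some comparisons at 48 h are also given without the first labelled ΔAorlmA library. These are bulk samples, in which fewer cells of a kind and less RNA per cell cannot be told apart.

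The FAD-linked oxidase gene AOL_s00188g307 carries an FAD-binding domain, and its nearest Swiss-Prot entry is a 6-hydroxy-D-nicotine oxidase of the bacterium Pseudarthrobacter oxydans, an enzyme of nicotine breakdown. Its own substrate is not annotated. Labelled ΔAorlmA had 12.53, 12.61 and 21.07 TPM after 48 h and 4.08, 41.09 and 14.97 TPM at 0 h. The wild type had 9.78, 8.32 and 13.86 TPM after 48 h and 376.02, 673.48 and 883.18 TPM at 0 h. The 3 uninduced wild-type libraries stood far above the other 9, and those 9 overlapped across their 3 groups. The mean of 15.4 ± 4.91 TPM at 48 h in labelled ΔAorlmA compared with 20.0 ± 19.0 TPM at 0 h. The fitted log2 difference was 0.08 with a standard error of 0.60 and a 95% interval of −1.21 to 1.37 (limma, adjusted p = 0.932), so a change over time was not detectable beside the spread at 0 h. Without the first library at 0 h the difference was −0.70 (95% interval −1.70 to 0.30, limma adjusted p = 0.25), and without the third at 48 h it was −0.15. All differences are on the log2(TPM + 1) scale, which understates the change of low genes.

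The carrier gene AOL_s00215g29 has mitochondrial carrier domains and is nearest to mic-33 of Neurospora crassa. The mammalian 2-oxoglutarate/malate carrier exchanges both acids across the inner membrane and is part of the malate-aspartate shuttle. The gene had 0.98, 2.77 and 3.04 TPM after 48 h and 0.64, 11.76 and 6.85 TPM at 0 h in labelled ΔAorlmA. In the wild type it had 2.84, 2.11 and 1.59 TPM after 48 h and 84.34, 90.21 and 67.74 TPM at 0 h. The uninduced wild-type libraries again stood alone. Labelled ΔAorlmA at 0 h spanned both sides of its own 48 h values, with 1 library lower than all of them and the other libraries higher. The log2 difference over time in labelled ΔAorlmA was −0.82 with a standard error of 0.59 and a 95% interval of −2.09 to 0.46 (limma, adjusted p = 0.329). Without the first library at 0 h it was −1.68 (95% interval −2.49 to −0.88, limma adjusted p = 0.00536), so this call turned on that library. That library held an estimated 8 fragments of the gene, against 145 and 100 in the other libraries of its group.

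The peptidase inhibitor gene AOL_s00054g904 is annotated by its I66 domain alone. Inhibitors of this family, known from mushrooms, block serine proteases of the trypsin type. Labelled ΔAorlmA had 67.64, 57.88 and 7.74 TPM after 48 h and 8.46, 110.35 and 82.68 TPM at 0 h. The wild type had 2.16, 6.67 and 2.26 TPM after 48 h and 178.83, 476.43 and 792.34 TPM at 0 h. Unlike the oxidase and the carrier, this gene had all 3 labelled ΔAorlmA libraries at 48 h above all 3 induced wild-type libraries. So had 18.1% of all genes tested, and the low induced wild-type values are part of how the gene was chosen. Of the 6 labelled ΔAorlmA libraries, 4 were at 57.88 TPM or more. Each labelled ΔAorlmA group held 1 library well below the others, the third at 48 h and the first at 0 h. The log2 difference over time in labelled ΔAorlmA was −0.44 with a standard error of 0.95 and a 95% interval of −2.49 to 1.61 (limma, adjusted p = 0.761). Its sign depended on single libraries: it was 0.51 without the third library at 48 h, 0.22 and 0.02 without the second and the third at 0 h, and −1.56 without the first at 0 h (95% interval −3.40 to 0.29, limma adjusted p = 0.165). Without the first library of both times it was −2.09 (95% interval −4.02 to −0.16, limma adjusted p = 0.0831), still without a call.

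The formamidase gene AOL_s00043g399 has the acetamidase/formamidase domain and is nearest to a putative formamidase of fission yeast. Formamidases split formamide into formate and ammonia, and KEGG places the gene in nitrogen metabolism. Labelled ΔAorlmA had 35.97, 17.70 and 34.06 TPM after 48 h and 26.42, 250.48 and 189.83 TPM at 0 h. The wild type had 13.22, 6.81 and 9.55 TPM after 48 h and 491.90, 509.13 and 674.81 TPM at 0 h. The second and the third labelled ΔAorlmA libraries at 0 h stood well above every 48 h library of either strain, and the first lay inside the range of labelled ΔAorlmA at 48 h. As for the inhibitor and 18.1% of all genes tested, all 3 labelled ΔAorlmA libraries at 48 h were above all 3 induced wild-type libraries. The low values of the latter are part of how the gene was chosen. The mean was 29.2 ± 10.04 TPM after 48 h and 156 ± 116 TPM at 0 h in labelled ΔAorlmA.

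The formamidase was called over time in labelled ΔAorlmA, which the oxidase, the carrier and the inhibitor were not. It fell by 1.92 on the log2 scale, with a standard error of 0.64 and a 95% interval of −3.30 to −0.54 (limma, adjusted p = 0.0488). A gene is called at an adjusted p under 0.05. Over all genes tested, 21.5% were called in this comparison and 8.52% were called lower, and the median log2 difference was 0.14 (−0.01 after median-of-ratios scaling). The formamidase call lay close to the threshold and was lost in 18 of 21 other settings, with a highest adjusted p of 0.204. A fit of the 6 labelled ΔAorlmA libraries alone, which takes no spread from the wild type, gave the same difference without a call (limma adjusted p = 0.143). Leaving out any 1 library other than the first of labelled ΔAorlmA at 0 h ended the call, with limma adjusted p from 0.0577 without the third wild-type library at 0 h to 0.204 without the second labelled ΔAorlmA library at 0 h. Without the first library at 0 h the difference was −2.92 (95% interval −3.68 to −2.16, limma adjusted p = 0.000315). The sign was negative in all 21 settings.

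The alpha-glucosidase gene AOL_s00169g233 has an alpha-amylase domain and is nearest to MAL2 of Candida albicans, a maltase. It had 1.32, 0.49 and 0.56 TPM after 48 h and 0.22, 0.68 and 0.13 TPM at 0 h in labelled ΔAorlmA. In the wild type it had 0.78, 0.42 and 0.72 TPM after 48 h and 7.89, 5.50 and 7.48 TPM at 0 h. Its uninduced wild-type libraries were above the other 9, but this gene was low everywhere. The fitted log2 difference over time in labelled ΔAorlmA was 0.41 with a standard error of 0.26. It was 1.09 and 0.11 with pseudocounts of 0.1 and 5, and 0.35 without the first library at 0 h. It is given as a description, because the gene entered the fit only through the uninduced wild-type libraries. Depth limits this gene: its levels came from an estimated 14 to 40 fragments at 48 h and 4 to 18 fragments at 0 h in labelled ΔAorlmA. The lowest of these, 4 fragments, has an exact Poisson 95% interval of 1.09 to 10.2, which covers counting error only.

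**Figure D1:**
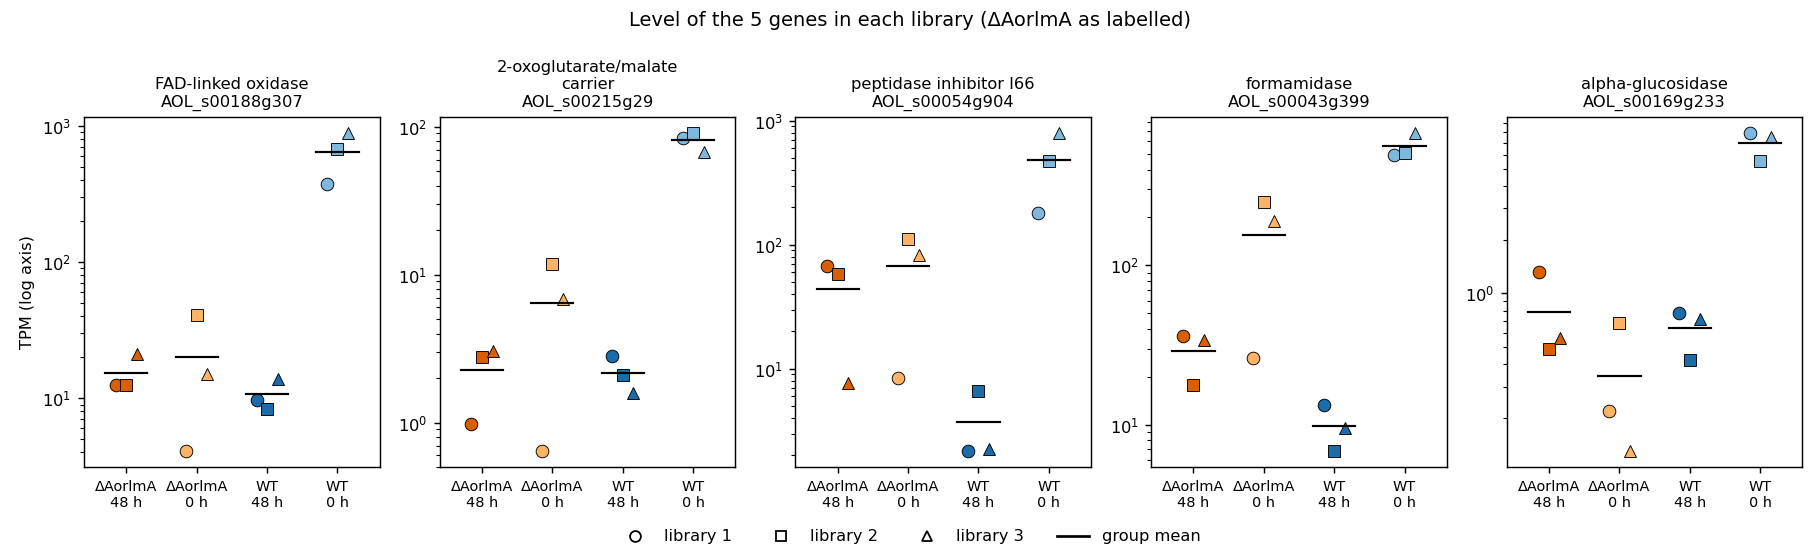
Expression of the 5 genes by library, in TPM on a log axis, with 3 points per group and a bar at the group mean. For each gene the uninduced wild-type libraries are the highest, by 9.15-fold over the next library for the oxidase but 1.62-fold for the inhibitor, whose labelled ΔAorlmA libraries lie between the wild-type groups.

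The label of the group, high only in the uninduced wild type, fitted the 5 genes unequally. The lowest uninduced wild-type library exceeded the highest of the other 9 by 9.15-fold for the oxidase, 5.76-fold for the carrier and 4.17-fold for the alpha-glucosidase. For the formamidase this margin was 1.96-fold and for the inhibitor 1.62-fold. The next highest library was the second labelled ΔAorlmA library at 0 h for 4 genes, and the first at 48 h for the alpha-glucosidase. Of all genes tested, 2.89% had such a margin of at least 2-fold. The choice had no numeric threshold, so there are no genes just inside or outside one. By margin, the genes ranked 2 (oxidase), 6 (carrier), 18 (alpha-glucosidase), 288 (formamidase) and 529 (inhibitor) among the 9355 tested. Margins and ranks both use the wild-type values that chose the genes, so they are descriptions and no independent support. The alpha-glucosidase was among the genes tested only through those values.

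Abundance among all genes set the alpha-glucosidase apart. When the 11479 genes were ranked by TPM, which is per length, the median rank of the oxidase was 5740 in labelled ΔAorlmA at 48 h, 5079 in labelled ΔAorlmA at 0 h, 6548 in the wild type at 48 h and 215 in the wild type at 0 h, where 1 is the most abundant. The inhibitor ranked 348, the formamidase 327 and the carrier 2133 in the uninduced wild type. The carrier ranked 7772 and 6586 in labelled ΔAorlmA at 48 h and 0 h, and 7950 in the wild type at 48 h. The formamidase still ranked 912 in labelled ΔAorlmA at 0 h, and the inhibitor 1819 at 0 h and 2810 at 48 h. The alpha-glucosidase ranked 7458 in the uninduced wild type, so its level was high only beside its own lower values.

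Between the strains at 0 h, the mean in labelled ΔAorlmA was 0.0311 of the wild-type mean for the oxidase, 0.0494 for the alpha-glucosidase, 0.0795 for the carrier, 0.139 for the inhibitor and 0.279 for the formamidase. These means include the first labelled ΔAorlmA library, which was low for most of the genes. Over all genes tested the median log2 difference at 0 h was −0.56, and −0.06 after median-of-ratios scaling. The ratios are on the deposited scale. At 48 h a pair of the genes did not overlap between the strains. The formamidase averaged 29.2 ± 10.04 TPM in labelled ΔAorlmA and 9.86 ± 3.22 TPM in the wild type, and the inhibitor 44.4 ± 32.1 and 3.70 ± 2.58 TPM. Of all genes tested, 18.1% had all 3 labelled ΔAorlmA libraries above all 3 wild-type libraries at 48 h. The ratio of the means was 2.97 for the formamidase and 12.02 for the inhibitor. The inhibitor ratio was 20.1 without the second wild-type library and 8.88 without the first labelled ΔAorlmA library at 48 h. Without that labelled ΔAorlmA library the formamidase ratio was 2.625. The wild-type levels of the inhibitor at 48 h came from an estimated 11, 46 and 16 fragments. For the other 3 genes the strains overlapped at 48 h, with ratios of 1.45 (oxidase), 1.04 (carrier) and 1.23 (alpha-glucosidase). The carrier ratio fell below 1 when any of 3 libraries was left out, its difference of mean log2 values was −0.01, and the alpha-glucosidase ratio was 0.820 without the first labelled ΔAorlmA library. The mean TPM at 48 h was higher in labelled ΔAorlmA for 45.2% of all genes tested. These ratios use the libraries that chose the genes and are given without a test.

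The authors' deposited table of calls gives a second reading of the same libraries, without fold changes or p-values. For labelled ΔAorlmA at 48 h against 0 h, the authors' deposited table calls the carrier and the formamidase down and none of the other 3, while it calls 13.0% of all genes down. For labelled ΔAorlmA against the wild type at 48 h, the authors' deposited table calls the inhibitor and the formamidase up, with 15.8% of all genes called up. At 0 h the authors' deposited table calls 4 of the 5 down in labelled ΔAorlmA and leaves the formamidase uncalled, with 8.30% of all genes called down. Both comparisons between the strains hold wild-type libraries that chose the genes, so these calls are descriptions and no independent support. Over time in the wild type the authors' deposited table calls all 5 down, by the same libraries that chose them, and 21.6% of all genes down. The change of the carrier over time in labelled ΔAorlmA is thus called in the authors' deposited table and not in the limma fit of all 12 libraries.

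**Figure D2:**
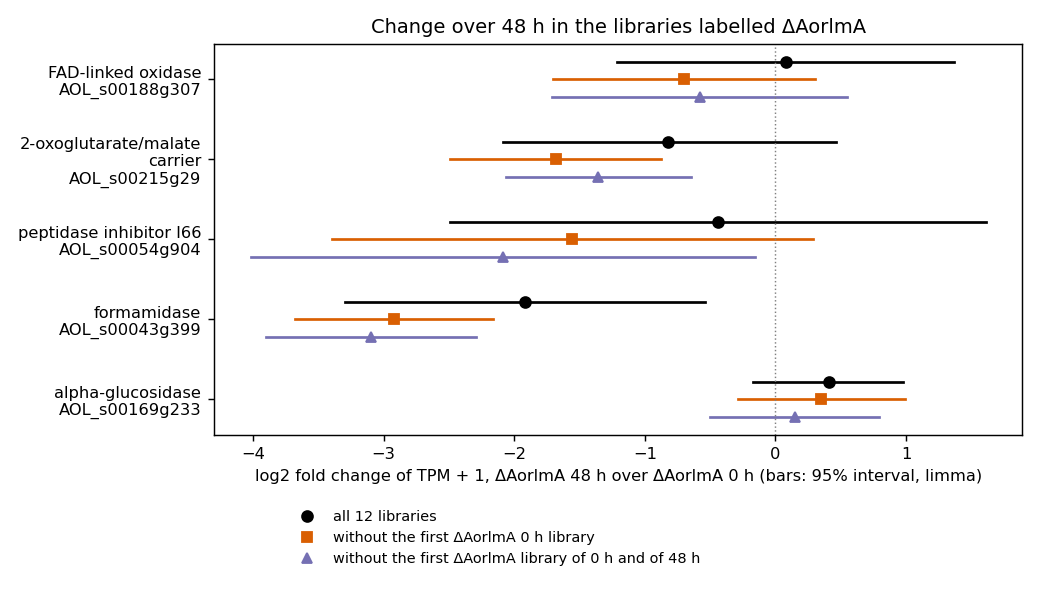
Change of the 5 genes in labelled ΔAorlmA, 48 h minus 0 h, as the log2 difference with its 95% interval, for all libraries and with libraries left out. Only the formamidase interval lies below 0 with all libraries, the carrier interval falls below 0 once the first library at 0 h is left out, and that of the inhibitor only without the first library of both times. The alpha-glucosidase is shown as a description.

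Within labelled ΔAorlmA at 0 h, the first library was the lowest of its group for 4 of the 5 genes. Relative to the group mean of log2(TPM + 1), the first library deviated by −1.57 for the oxidase, −1.74 for the carrier, −2.23 for the inhibitor and −2.0 for the formamidase. For the alpha-glucosidase the deviation was −0.12. The second library was the highest of the group for all 5 genes. In the uninduced wild type the third library was the highest and the first the lowest for the oxidase, the inhibitor and the formamidase, but the third was the lowest for the carrier.

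Related genes were read from 5 lists, which hold other genes with the same domain or function, taken from the annotation without the 5 genes. In the wild type over time, 46.4% of all genes tested were called, 17.6% higher and 28.7% lower. Between the strains 42.7% were called at 0 h, 8.87% higher and 33.8% lower in labelled ΔAorlmA, and 23.9% at 48 h, 9.20% higher and 14.7% lower. Over time in labelled ΔAorlmA, 13.0% of all genes were called higher. The balance of calls depended on scaling: over time in labelled ΔAorlmA, 1212 genes were called higher and 797 lower, against 952 and 1132 after median-of-ratios scaling. In the wild type over time, 1650 were called higher and 2688 lower, against 2253 and 2207 after that scaling and 2273 and 1989 after quantile normalization. Between the strains at 0 h, 830 were called higher and 3160 lower in labelled ΔAorlmA, against 1335 and 1043 after median-of-ratios scaling and 1249 and 1568 after quantile normalization. Without the first labelled ΔAorlmA library at 0 h, 2168 genes were called higher and 1274 lower over time in labelled ΔAorlmA (median 0.18), and 766 higher and 3662 lower between the strains at 0 h.

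Of 26 other FAD-linked oxidase genes, 17 passed the filter on low values. Over time in labelled ΔAorlmA 1 rose and 3 fell (median log2 difference −0.22, against 0.14 over all genes; without the first library at 0 h 2 and 4, median −0.33), and in the wild type 2 rose and 7 fell (4 and 6 after median-of-ratios scaling; median −0.47, against −0.25). AOL_s00076g534, an uncharacterised FAD-linked oxidoreductase, fell in both strains. It averaged 34.3 ± 8.25 TPM after 48 h and 82.1 ± 25.1 TPM at 0 h in labelled ΔAorlmA, a log2 difference of −1.22 (SE 0.33, limma adjusted p = 0.0226), and 7.72 ± 1.44 and 64.3 ± 24.6 TPM in the wild type, a difference of −2.86 (limma adjusted p = 5.5e-05). The call in labelled ΔAorlmA was lost in 5 of 21 settings, 4 of them the omission of the second or the third library at 0 h or of the first or second at 48 h (limma adjusted p from 0.0543 to 0.0956). AOL_s00007g243, a putative D-arabinono-1,4-lactone oxidase, known in yeast as the last enzyme in the synthesis of an ascorbate analogue, rose by 1.65 in labelled ΔAorlmA (SE 0.36, limma adjusted p = 0.00978), a call lost in the 6 labelled ΔAorlmA libraries alone (0.057). AOL_s00007g7, similar to azaG of Aspergillus, rose by 1.29 in the wild type (limma adjusted p = 0.00629) at 2.28 ± 0.552 TPM after 48 h and 0.330 ± 0.0800 TPM at 0 h.

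Most of the mitochondrial carriers that were called rose. Of 37 other carriers 36 were tested, and 10 rose and 1 fell over time in labelled ΔAorlmA (8 and 1 after median-of-ratios scaling), while 14 rose and 6 fell in the wild type. The counts in labelled ΔAorlmA were also 10 and 1 without the first library at 0 h. The median log2 difference was 0.38 in labelled ΔAorlmA and 0.13 in the wild type, against 0.14 and −0.25 over all genes. The order of the strains turned with the scaling, at 0.22 and 0.34 after median-of-ratios scaling and 0.39 and 0.43 after quantile normalization. AOL_s00081g259, a dicarboxylate transporter, averaged 203 ± 35.9 TPM after 48 h and 72.7 ± 16.6 TPM at 0 h in labelled ΔAorlmA and rose by 1.48 (SE 0.24, limma adjusted p = 0.00277). It rose by 1.79 in the wild type (limma adjusted p = 0.000116). AOL_s00007g568 fell by 1.55 in labelled ΔAorlmA (SE 0.39, limma adjusted p = 0.018) and by 1.72 in the wild type (limma adjusted p = 0.00387). The call in labelled ΔAorlmA was lost in 4 of 21 settings. Of these, 3 were the omission of the second or the third library at 0 h or of the second at 48 h (limma adjusted p from 0.0511 to 0.0777). AOL_s00188g56, an uncharacterised carrier, was high in the uninduced wild type like the 5 genes. It averaged 7.72 ± 1.96 and 8.88 ± 5.78 TPM in labelled ΔAorlmA at 48 h and 0 h, and 10.9 ± 1.64 and 100 ± 33.9 TPM in the wild type, a wild-type difference of −3.05 (SE 0.39, limma adjusted p = 9.93e-05).

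The protease inhibitor list held 21 other genes, of which 16 were tested, and 9 of the 21 are subtilases matched through their inhibitor-like propeptide. Over time 2 rose and 1 fell in labelled ΔAorlmA (3 and 2 without the first library at 0 h), and 2 rose and 5 fell in the wild type. AOL_s00076g4, a cuticle-degrading serine protease rather than an inhibitor, averaged 745 ± 281 TPM after 48 h and 122 ± 54.2 TPM at 0 h in labelled ΔAorlmA and rose by 2.61 (SE 0.46, limma adjusted p = 0.00409). The subtilisin-like protease genes AOL_s00004g122 and AOL_s00215g702 were also named by the rule. The first fell by 1.21 in labelled ΔAorlmA (limma adjusted p = 0.0308) and by 1.51 in the wild type (limma adjusted p = 0.00438). The second rose by 3.75 in the wild type (limma adjusted p = 0.00174), and its difference of 0.77 in labelled ΔAorlmA was not called (limma adjusted p = 0.469). The call of AOL_s00004g122 in labelled ΔAorlmA was lost in 5 of 21 settings, 3 of them the omission of the second library at 0 h or of the second or the third at 48 h (limma adjusted p from 0.0637 to 0.121). Among the 9 other genes with the I66 domain 7 were tested, of which 1 rose and none fell in labelled ΔAorlmA and 1 rose and 2 fell in the wild type. The one that rose in labelled ΔAorlmA, AOL_s00193g183, fell in the wild type: it averaged 5.86 ± 1.67 and 0.290 ± 0.502 TPM in labelled ΔAorlmA at 48 h and 0 h, a log2 difference of 2.45 (SE 0.46, limma adjusted p = 0.00523), and the wild-type difference was −2.03 (limma adjusted p = 0.00387). The difference between these changes was called too, as it was for 4.43% of all genes tested (4.48, limma adjusted p = 0.011). The most abundant of them in the wild type was AOL_s00215g748, with 2292.69, 2711.44 and 3748.66 TPM after 48 h and 12892.85, 31925.97 and 22188.43 TPM at 0 h in the wild type. It fell by 2.87 in the wild type (SE 0.49, limma adjusted p = 0.000655). At 0 h it averaged 3520 ± 1730 TPM in labelled ΔAorlmA and 22300 ± 9520 TPM in the wild type, a log2 difference of −2.71 (limma adjusted p = 0.00249). Without the first labelled ΔAorlmA library this was −2.26 (limma adjusted p = 0.00636). The I66 gene AOL_s00006g563 ran the other way in the wild type, rising by 3.46 (limma adjusted p = 0.00332) at 71.7 ± 38.0 TPM after 48 h and 6.10 ± 5.47 TPM at 0 h. It also ran the other way between the strains at 0 h, where it was higher in labelled ΔAorlmA (5.94, limma adjusted p = 0.000583). Of the 7 I66 genes tested, 2 were higher and 3 lower in labelled ΔAorlmA at 0 h. AOL_s00193g183 and AOL_s00006g563 were singled out after their values were seen.

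For amide and urea hydrolysis 23 of 24 other genes were tested. Over time 2 rose and 3 fell in labelled ΔAorlmA (1 and 4 after median-of-ratios scaling, 2 and 6 without the first library at 0 h), and 2 rose and 11 fell in the wild type (4 and 9), with a wild-type median of −0.89 against −0.25 over all genes. The median in labelled ΔAorlmA was 0.21 and changed sign to −0.10 without the first library at 0 h. AOL_s00173g193, annotated as amidase 1, had levels near those of the formamidase in each group. It had 34.18, 13.50 and 28.95 TPM after 48 h and 48.08, 244.55 and 162.44 TPM at 0 h in labelled ΔAorlmA, and averaged 13.8 ± 2.80 and 345 ± 54.6 TPM in the wild type. Again the first labelled ΔAorlmA library at 0 h was the low one. The gene fell by 2.34 in labelled ΔAorlmA (SE 0.50, limma adjusted p = 0.00922) and by 4.55 in the wild type (limma adjusted p = 4.28e-05). In labelled ΔAorlmA the difference was −3.01 without the first library at 0 h (limma adjusted p = 0.000346), and the call was lost in the 6 labelled ΔAorlmA libraries alone (0.059). Its locus number is the one after SNF1. AOL_s00210g314, a putative asparaginase, rose by 1.94 in labelled ΔAorlmA (SE 0.31, limma adjusted p = 0.00277) and by 1.01 in the wild type (limma adjusted p = 0.0181). Its wild-type call was lost in 4 of 20 settings. AOL_s00007g202, the allantoinase of purine breakdown, rose by 1.49 in the wild type (limma adjusted p = 0.00458). In labelled ΔAorlmA its difference of 0.86 was not called from all libraries (limma adjusted p = 0.0941), but was without the first library at 0 h (1.1, limma adjusted p = 0.0361).

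For alpha-glucan hydrolysis 15 of 17 other genes were tested. Over time none rose and 3 fell in labelled ΔAorlmA, and 1 rose and 8 fell in the wild type, with medians of −0.21 and −1.54. Without the first library at 0 h none rose and 5 fell in labelled ΔAorlmA (median −0.31), and after quantile normalization the wild-type median was −0.84. AOL_s00097g3, another alpha-glucosidase, averaged 0.977 ± 0.306 TPM after 48 h and 3.58 ± 1.86 TPM at 0 h in labelled ΔAorlmA and fell by 1.15 (SE 0.29, limma adjusted p = 0.0171), a call lost in 3 of 21 settings, among them the omission of the second library at 0 h (limma adjusted p = 0.067) or of the third at 48 h (0.0536). It fell by 1.54 in the wild type (limma adjusted p = 0.00108). AOL_s00215g766, an alpha-amylase, fell by 2.80 in the wild type (limma adjusted p = 7.47e-05) and by 1.12 in labelled ΔAorlmA (limma adjusted p = 0.036). The second call was lost in 9 of 21 settings, 7 of them the omission of 1 library (the second or the third of labelled ΔAorlmA at 0 h, any of the 3 at 48 h, or the second or the third of the wild type at 48 h), with limma adjusted p from 0.0511 to 0.135. The glucoamylase AOL_s00043g332, which releases glucose from starch, was the one that rose, by 1.07 in the wild type (SE 0.35, limma adjusted p = 0.025). It averaged 141 ± 44.3 TPM after 48 h and 66.2 ± 20.6 TPM at 0 h in the wild type, and its call was lost without the first or the third library at 0 h or the first or second at 48 h (limma adjusted p from 0.0531 to 0.103).

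**Figure D3:**
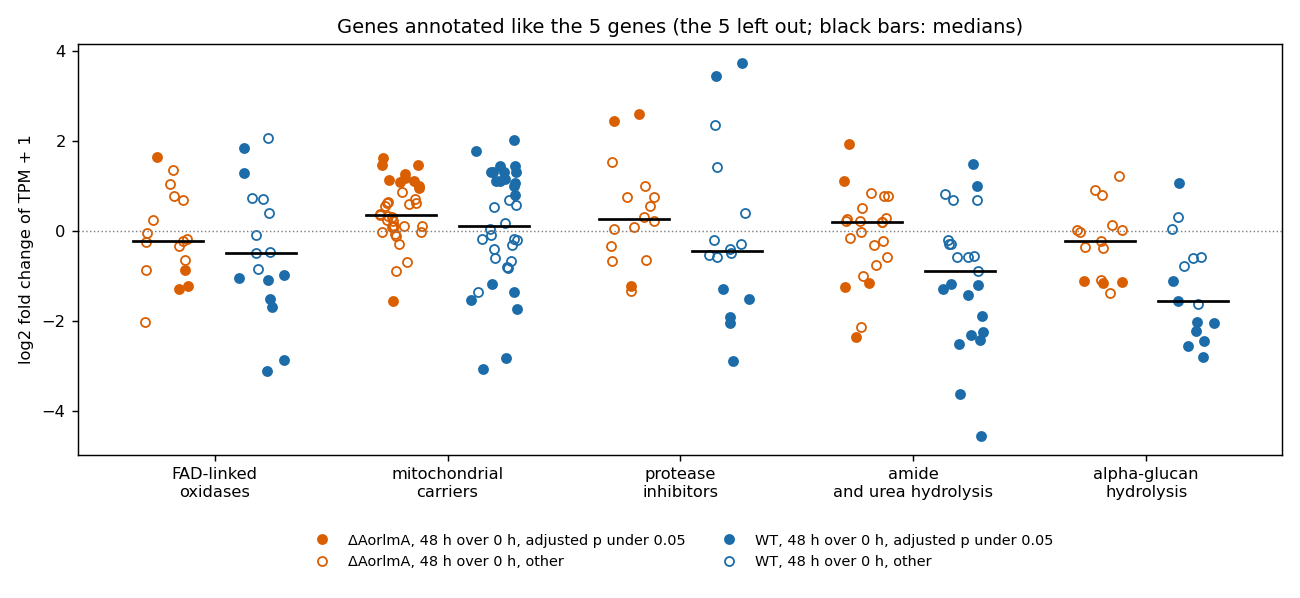
Log2 difference of TPM + 1, 48 h minus 0 h, of each tested gene in the 5 related lists, in labelled ΔAorlmA and in the wild type. Filled points passed the threshold and black bars are medians, which lie at 0.38 and 0.13 for the carriers and at −0.21 and −1.54 for alpha-glucan hydrolysis. The medians depend on scaling: after median-of-ratios scaling those of the carriers are 0.22 and 0.34, in the other order, and after quantile normalization the wild-type alpha-glucan median is −0.84.

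Between the strains, the amide and urea list had none higher and 15 of 23 lower in labelled ΔAorlmA at 0 h, but 4 lower after median-of-ratios scaling, and none higher and 5 lower at 48 h. Alpha-glucan genes had none higher and 6 lower at 0 h, against 2 lower after that scaling, and 2 higher and 2 lower at 48 h. FAD-linked oxidases had 2 higher and 6 lower at 0 h (2 and 1) and 3 higher and 2 lower at 48 h. Carriers had 6 higher and 8 lower at 0 h (13 and 2) and 4 higher and 2 lower at 48 h. The inhibitor list had 2 higher and 4 lower at 0 h (3 and 2) and 2 higher and 1 lower at 48 h. That scaling moved the median log2 difference over all genes at 0 h to −0.06, against −0.56 as deposited. Without the first labelled ΔAorlmA library at 0 h, the counts higher and lower at 0 h were 0 and 12 for the amide and urea list, 1 and 6 for alpha-glucan genes, 2 and 5 for FAD-linked oxidases, 8 and 8 for carriers and 2 and 4 for the inhibitor list. Without the first labelled ΔAorlmA library of both times, the counts at 48 h were 2 and 6, 5 and 3, 4 and 6, 7 and 5, and 3 and 3, in that order. Over all 9355 genes tested they were 1452 and 2549, against 861 and 1373 from all libraries.

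The genes beside the 5 on their scaffolds, within 2 locus numbers on each side, were 20 in all, of which 13 were tested. Whether the counting used strand is not given in the sources used here, so reads of neighbours that overlap could not be told apart. Over time 2 rose and 2 fell in labelled ΔAorlmA (1 and 3 after median-of-ratios scaling, 2 and 4 without the first library at 0 h), and 1 rose and 5 fell in the wild type. Between the strains 1 was higher and 3 lower in labelled ΔAorlmA at 0 h (3 and 2 after that scaling, 1 and 5 without that library). At 48 h 5 were higher and none lower, against 9.20% and 14.7% of all genes tested. Without the first labelled ΔAorlmA library of both times 6 were higher and none lower at 48 h, against 1452 and 2549 of all 9355 genes tested. The 5 called higher at 48 h from all libraries were AOL_s00043g397, AOL_s00054g906, AOL_s00169g234, AOL_s00169g235 and AOL_s00215g31. Their calls at 48 h were lost in 5, 8, 3, 2 and 5 of 20 settings, in that order, with omissions of 1 library among them for each.

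The oxidase had no neighbour with its pattern. AOL_s00188g305, the gramicidin synthase-like AOL_s00188g306 and AOL_s00188g309 were listed at or near 0 in all libraries, with no value above 0.05 TPM. AOL_s00188g308 held 13.5 ± 2.45 and 14.9 ± 7.55 TPM in labelled ΔAorlmA at 48 h and 0 h, against 20.4 ± 2.52 and 23.3 ± 8.65 TPM in the wild type, with no call from all libraries. Without the first labelled ΔAorlmA library it was lower at 0 h (−1.02, limma adjusted p = 0.0208). Beside the carrier, AOL_s00215g28, a pyroglutamyl-peptidase that trims peptide ends, averaged 55.0 ± 13.1 and 88.4 ± 29.1 TPM in labelled ΔAorlmA at 48 h and 0 h, and 75.1 ± 7.56 and 219 ± 22.05 TPM in the wild type. It fell by 1.53 in the wild type (SE 0.27, limma adjusted p = 0.000781) and was lower in labelled ΔAorlmA at 0 h (−1.35, limma adjusted p = 0.00366). AOL_s00215g27, with a MOSC domain, fell by 2.05 in the wild type (limma adjusted p = 0.000988), and at 0 h it was lower in labelled ΔAorlmA (−1.86, limma adjusted p = 0.00375). On the other side, the linoleate 10R-lipoxygenase gene AOL_s00215g31, whose product oxidises linoleic acid to signalling lipids, was higher in labelled ΔAorlmA at 0 h, at 1290 ± 449 TPM against 243 ± 106 TPM in the wild type (2.46, limma adjusted p = 0.00138). It was the neighbour that rose in the wild type, by 1.29 (limma adjusted p = 0.0168), a call lost without the third library at 0 h (0.0689) or the first or the third at 48 h (0.0596 and 0.0584). Phospholipase D1, AOL_s00215g30, had no call.

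Beside the inhibitor, AOL_s00054g902, AOL_s00054g903 and AOL_s00054g905 were too low to test. AOL_s00054g906, which has no annotation, had 3.96, 11.68 and 10.75 TPM after 48 h and 13.90, 135.73 and 45.71 TPM at 0 h in labelled ΔAorlmA. In the wild type it had 0, 1.72 and 1.75 TPM after 48 h and 77.83, 185.01 and 106.39 TPM at 0 h. It fell by 5.89 in the wild type (SE 0.70, limma adjusted p = 6.57e-05) and by 2.34 in labelled ΔAorlmA (limma adjusted p = 0.0336), where the call was lost in 8 of 21 settings, 5 of them the omission of 1 library (the second or the third at 0 h or any of the 3 at 48 h, limma adjusted p from 0.0561 to 0.142). At 48 h it was higher in labelled ΔAorlmA than in the wild type (2.21, limma adjusted p = 0.0381). That call was lost in 8 of 20 settings, 5 of them the omission of the second or the third labelled ΔAorlmA library or of any of the 3 wild-type libraries at 48 h (limma adjusted p from 0.069 to 0.131).

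Beside the formamidase, AOL_s00043g398, with an ATP-grasp domain of the glutathione synthetase type, averaged 4.22 ± 1.70 and 16.4 ± 13.2 TPM in labelled ΔAorlmA at 48 h and 0 h, and 2.76 ± 0.294 and 57.8 ± 14.5 TPM in the wild type. It fell by 3.94 in the wild type (SE 0.57, limma adjusted p = 0.000197), and its difference of −1.38 in labelled ΔAorlmA was not called (limma adjusted p = 0.097) except without the first library at 0 h (−2.21, limma adjusted p = 0.00144). The endopeptidase gene AOL_s00043g397 rose by 1.47 in labelled ΔAorlmA (limma adjusted p = 0.0308). Its call was lost in 6 of 21 settings, 4 of them the omission of the second or the third library at 0 h or at 48 h (limma adjusted p from 0.0796 to 0.128). AOL_s00043g400 was too low to test, and the xylosyltransferase gene AOL_s00043g401 had no call. Beside the alpha-glucosidase, the 3-phytase gene AOL_s00169g232, whose product frees phosphate from phytate, had 0.37, 0.29 and 1.45 TPM after 48 h and 13.58, 5.44 and 3.39 TPM at 0 h in labelled ΔAorlmA. It fell by 2.19 there (SE 0.49, limma adjusted p = 0.0117) and by 3.38 in the wild type (limma adjusted p = 0.000214). The lactose permease gene AOL_s00169g231 had no call, and the unannotated AOL_s00169g234 and the SH3-domain gene AOL_s00169g235 were higher in labelled ΔAorlmA at 48 h (2.10 and 2.43, limma adjusted p = 0.0138 and 0.0111). Both calls were lost without the third wild-type library at 48 h (limma adjusted p = 0.0502 for each) or the third labelled ΔAorlmA library (0.0601 and 0.0555), and the first also without the second labelled ΔAorlmA library (0.0519).

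**Figure D4:**
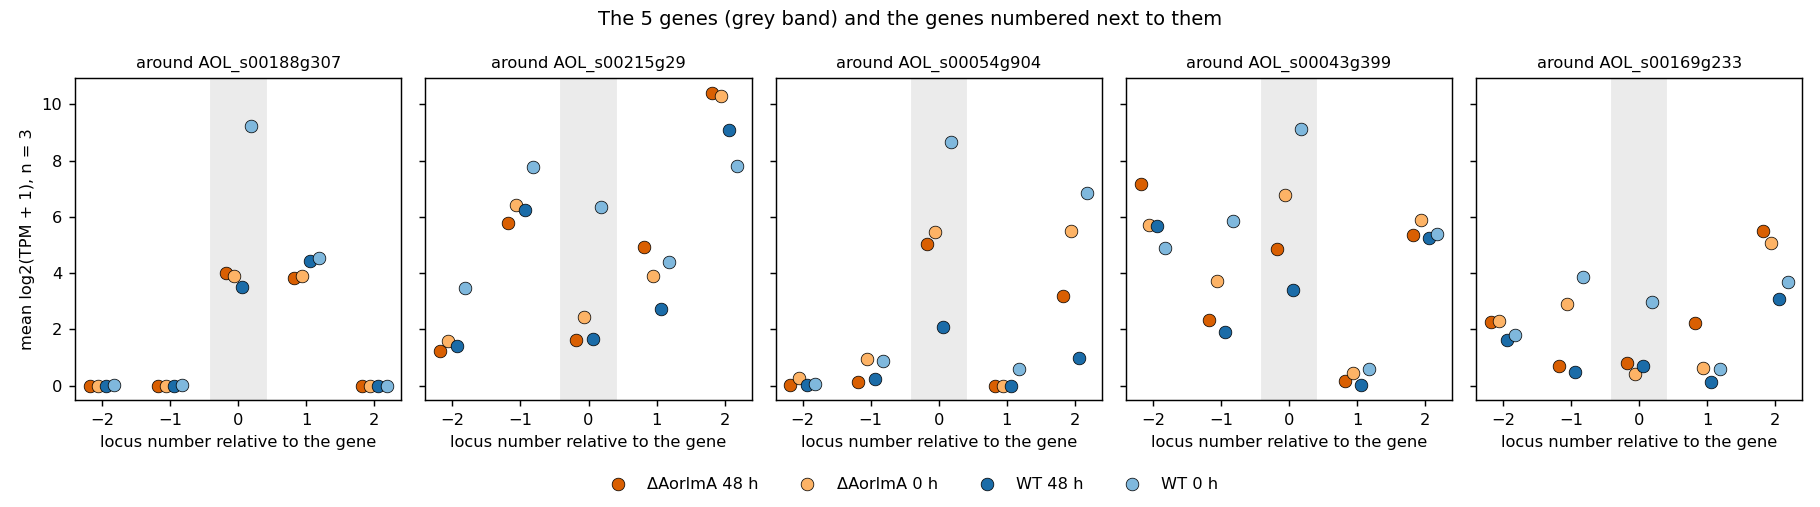
Mean log2(TPM + 1) of the 5 genes and of their neighbours within 2 locus numbers, by group. The uninduced wild type is highest for each of the 5 genes and for some neighbours, such as AOL_s00054g906 and AOL_s00043g398, while 3 of the 4 genes beside the oxidase lie at or near 0.

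The annotated genes most alike to each of the 5 were found by Pearson correlation of log2(TPM + 1) over the 12 libraries, which share group, depth and library. They are descriptions, since many genes follow the same group differences: 296 genes tested had a correlation above 0.9 with the oxidase, 441 with the carrier, 79 with the inhibitor, 384 with the formamidase and 149 with the alpha-glucosidase. The oxidase was most like AOL_s00188g158, with a phosphopantetheinyl transferase domain (r = 0.982), AOL_s00170g1, of the glyoxalase superfamily (0.98), and AOL_s00079g230, of unknown function (0.976). The carrier was most like AOL_s00097g250, with ankyrin repeats, the HET-E-1-like incompatibility gene AOL_s00080g9, and AOL_s00076g49, of unknown function, each at 0.984. The inhibitor had AOL_s00210g255, with a von Hippel-Lindau domain (0.975), the acyl-CoA ligase gene AOL_s00076g158 (0.969) and the transaminase gene AOL_s00081g39 (0.953).

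The formamidase was most like the oxidoreductase gene AOL_s00109g47 (0.996), the inositol dehydrogenase gene AOL_s00080g100 (0.992) and AOL_s00043g396 (0.99). AOL_s00043g396 encodes an S-(hydroxymethyl)glutathione dehydrogenase, the enzyme that leads formaldehyde towards formate, and lies 3 locus numbers before the formamidase. The alpha-glucosidase was most like a transcription factor gene, AOL_s00004g621 (0.985), the metacaspase gene AOL_s00210g67 (0.968) and the carrier gene AOL_s00188g56 described above (0.964).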

How the data were processed

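Gene expression was measured by RNA-seq of hyphae in 12 libraries, whose groups and replicate numbers were taken from the sample titles. The 3 labelled ΔAorlmA samples at 48 h share 1 description, which carries the number 1, and were told apart by title alone. The authors deposited TPM values and, with annotation, FPKM values, both rounded. The authors' table of calls (up, down or not called) was used for comparison only. Raw and clean reads per library (48.9 to 61.6 and 48.5 to 61.1 M) were taken as read counts from the authors' deposited statistics. The table titled as raw gene counts holds correlations between libraries, so no count test could be run. No aligner, quantifier or genome build is named in the labels or headers (not given in the sources used here). The 8 deposited columns of group means were not used.

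The 5 genes, the related lists and the tests were chosen with earlier results of these data known. The 9355 genes that reached 1 TPM in 3 or more libraries entered 1 limma fit (version 3.58.1, R 4.3.3, lmFit and eBayes with a variance trend) on log2(TPM + 1), with a mean for each of the 4 groups. P-values were two-sided and Benjamini-Hochberg adjusted over all genes tested, and a call is an adjusted p under 0.05. Intervals are 95%. The fit was tested on simulated data. Genes numbered within 2 of a member on its scaffold were taken as neighbours, and the 3 annotated genes with the highest correlation as most alike. From each related list and in either strain, the called gene with the lowest adjusted p in each direction was named. Settings tried were other scalings, pseudocounts, no filter, a replicate block, the 6 labelled ΔAorlmA libraries alone, a robust variance model, and libraries left out.

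Steps in the low FPKM values put the assigned fragments at 12.5 to 15.7 M in each library, from 179 to 217 values each. All of these lay within 0.15 of a whole number of fragments once the length was shortened by 210 to 235 bases. Fragment numbers per gene rest on this estimate.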

Additional observations from a re-analysis of the deposited data

Results flagged for a closer look

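In 4 genes of the related lists, singled out after their values were seen, the change over time differed between the strains by a test of the difference itself (limma interaction, labelled ΔAorlmA minus wild type). Of all genes tested, 4.43% were called in this comparison. The lists held 17 FAD-linked oxidases, 36 carriers, 16 genes of the inhibitor list, 23 of amide and urea and 15 of alpha-glucan hydrolysis that were tested. The share called among them was not above that over all genes. The I66 inhibitor gene AOL_s00193g183 had an interaction of 4.48 on the log2 scale (SE 0.66, adjusted p = 0.011), with opposite signs in the strains. Its mean was 5.86 ± 1.67 and 0.290 ± 0.502 TPM in labelled ΔAorlmA at 48 h and 0 h, and 3.68 ± 2.46 TPM in the wild type at 48 h, where it had 10.44, 23.45 and 16.22 TPM at 0 h.

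The carrier gene AOL_s00188g56 had an interaction of 3.0 (SE 0.55, adjusted p = 0.021). The call was lost without the second wild-type library at 0 h (adjusted p = 0.0512) or the second or the third at 48 h (0.0523 and 0.061). The alpha-glucan gene AOL_s00097g509 had an interaction of 2.56 (SE 0.44, adjusted p = 0.0195), lost without the second wild-type library at 0 h (0.0512) or the third at 48 h (0.0594). It averaged 3.49 ± 1.51 and 3.31 ± 0.661 TPM in labelled ΔAorlmA at 48 h and 0 h, and 0.673 ± 0.421 and 8.60 ± 1.73 TPM in the wild type.

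The allophanate hydrolase gene AOL_s00078g81, whose product takes part in urea breakdown, had an interaction of 2.40 (SE 0.57, adjusted p = 0.0371). It averaged 0.707 ± 0.286 and 3.63 ± 3.15 TPM in labelled ΔAorlmA at 48 h and 0 h, and 0.647 ± 0.15 and 19.4 ± 2.62 TPM in the wild type. Its call was lost in 12 of 20 settings. Among them were median-of-ratios scaling (limma adjusted p = 0.0905), quantile normalization (0.121) and the omission of any wild-type library (up to 0.0885). All 4 are genes of the related lists and none is among the 5 genes, whose own interaction uses the libraries that chose them.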

How the results depend on the processing

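The change over time in labelled ΔAorlmA was recomputed under 21 other settings. The number of genes called, 2009, was 438 from the 6 labelled ΔAorlmA libraries alone and 3420 without the first labelled ΔAorlmA library of both times, and leaving out 1 library at a time gave 720 (without the second at 0 h) to 3442 (without the first at 0 h). The formamidase AOL_s00043g399 kept its sign in all 21 settings and its call in 3. Its log2 difference was −1.88 after quantile normalization, −1.95 and −1.81 with pseudocounts of 0.1 and 5, and −1.92 without the filter on low values, in the 6 libraries alone, with a robust variance model and with the replicate block. Leaving out 1 library gave −2.92 to −1.32. The carrier AOL_s00215g29 was called in 2 settings, without both first libraries (−1.36) and without the first at 0 h (−1.68), and leaving out 1 library gave −1.68 to −0.21. The oxidase AOL_s00188g307, not called in any setting, changed sign after median-of-ratios scaling (−0.07), quantile normalization (−0.08), with a pseudocount of 5 (−0.02) and without both first libraries (−0.58), and its leave-one-out range was −0.70 to 0.83. When 1 library was left out, the inhibitor AOL_s00054g904 ranged over −1.56 to 0.51, without a call. The alpha-glucosidase AOL_s00169g233, given as a description and not tested, ranged over 0.20 to 0.58. Without both first libraries they were −2.09 and 0.15, and with pseudocounts of 0.1 and 5 the alpha-glucosidase was 1.09 and 0.11. The causes were not tested.

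The replicate numbers were not taken to pair the libraries: the deviations of same-numbered labelled ΔAorlmA libraries at 48 h and 0 h correlated at 0.173, −0.0368 and 0.188, and not every library correlated best with its own number. With the replicate block 1766 genes were called, and the formamidase had an adjusted p of 0.0603 (limma). The other results are counts of genes called and calls of single genes. Among them 163 recomputed tests lost their call, and 99 counts moved by over 1.5 times or to or from 0. The other 1681 values were tests that kept their call or counts that stayed within 1.5 times or at 0. Depth limits the alpha-glucosidase outside the uninduced wild type, the carrier in the first labelled ΔAorlmA library of each time (an estimated 8 fragments at 0 h and 14 at 48 h) and in the wild type at 48 h (24 to 32), and the inhibitor in the wild type at 48 h (11 to 46).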
